A study of Caenorhabditis elegans with 12 samples.

Results

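The proteasome subunit genes of *Caenorhabditis elegans* were taken as every gene whose name holds *pas*, *pbs*, *rpn* or *rpt*, a hyphen and a digit. The rule found 33 genes among the 46546 named genes, the same in each of the 12 count tables, and all 33 passed the filter on low counts in all 5 comparisons. Of these, 14 encode the 20S core, with 7 genes of the alpha ring (*pas-1* to *pas-7*) and 7 of the beta ring (*pbs-1* to *pbs-7*). The other 19 encode the 19S cap, with 6 ATPases of the base (*rpt-1* to *rpt-6*), 4 other subunits of the base (*rpn-1*, *rpn-2*, *rpn-10* and *rpn-13*) and 9 subunits of the lid (*rpn-3*, *rpn-5*, *rpn-6.1*, *rpn-6.2*, *rpn-7*, *rpn-8*, *rpn-9*, *rpn-11* and *rpn-12*). Synchronized wild-type hermaphrodites (N2 Bristol) were grown from L1 on *Escherichia coli* OP50 at 20 °C, and poly-A RNA of whole worms was sequenced. Exposed L4 worms had 20 µM cadmium chloride (Cd) with their food for 47 h, and unexposed L4 worms were grown for 47 h without it. Exposed L3 worms had 20 µM Cd for 27 h, and unexposed L3 worms were grown for 27 h without it. Each of these 4 groups had 3 biological replicates, and all of them carried the wild-type genome. The comparisons ask whether Cd changes the transcripts of the proteasome at L3, at L4, and by a different amount at the 2 stages, and how these transcripts differ between L4 and L3.

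The proteasome degrades proteins that carry chains of ubiquitin, and all eukaryotic cells need it. Its 20S core is a barrel of stacked alpha and beta rings with the proteolytic sites inside, and the 19S cap binds ubiquitin chains, removes them, unfolds the substrate and feeds it into the core. In *C. elegans*, as in other animals, loss of proteasome activity is known to raise the transcription of most subunit genes together, through an endoplasmic reticulum form of the transcription factor SKN-1 that the glycanase PNG-1 and the protease DDI-1 activate. Cadmium binds thiols and can damage proteins, and the proteasome is one route by which damaged proteins are removed.

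The total count per library lay between 23899991 and 44766672, and the 33 genes together drew 0.601% to 0.627% of the counts in exposed L4 worms, 0.621% to 0.648% in unexposed L4 worms, 0.513% to 0.535% in exposed L3 worms and 0.495% to 0.499% in unexposed L3 worms. The lowest count of any of them in a library was 137 (*rpn-6.2*), so every gene was well above the range in which single reads matter. The metallothionein gene *mtl-1* had 14.8, 18.1 and 22.6 CPM (read counts scaled to library size with TMM factors) in the exposed L4 libraries and 2.30, 3.47 and 1.34 CPM in the unexposed ones, and 233, 211 and 256 CPM in the exposed L3 libraries and 5.11, 5.73 and 6.22 CPM in the unexposed ones, higher in every exposed library of its stage, as labelled. The source name of exposed libraries carries a Cd level of 0, but their titles and treatment give 20 µM. Exposed L4 replicates 2 and 3 were the most alike pair of the series, with a chi-square per degree of freedom of 3.22 over genes against 12.2 to 91.2 in the other pairs of a group. Exposed L4 replicate 1 gave 50.4 and 43.6 against replicates 2 and 3, inside the range of the other groups. The widest pair was unexposed L3 replicates 1 and 3, at 91.2. Germline, sperm, oocyte, intestine, muscle, hypodermis and neuron markers were all detected, as whole worms would give, and in such bulk RNA fewer cells of a type and less RNA per cell cannot be told apart.

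All but 1 of the proteasome genes were among the more abundant transcripts of the worm at both stages. Per length of exon, which allows levels of different genes to be compared, 32 of the 33 lay at or above the 90.9th percentile of the 17196 genes kept over the 12 libraries, with a median percentile of 94.6 over the 33 and a highest of 97.3. *rpn-6.2* was the exception, at the 57.5th percentile. The alpha ring genes had a median of 182 CPM per kb in exposed L4 worms, 195 in unexposed L4 worms, 169 in exposed L3 worms and 176 in unexposed L3 worms. The beta ring was close to it, with medians of 179, 191, 169 and 169 CPM per kb in the same 4 groups. Genes of the cap were lower per length in the median. The base ATPases had medians of 132, 141.5, 98.5 and 97.5 CPM per kb, the other base subunits 102, 113, 75.9 and 75.4, and the lid 119.5, 129 and then 88.4 and 90.1 at L3, in that order of groups.

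By level per length, *pas-3* had rank 1 or 2 of the 33 and *rpn-6.2* rank 33 in all 4 groups, but other ranks shifted with stage. *rpt-2* had rank 6 in exposed L4 worms, 7 in unexposed L4 worms and 16 in both L3 groups. *rpt-1* had rank 16 in unexposed L4 worms and 26 in unexposed L3 worms. *pas-3* (alpha ring) had the highest mean over the 12 libraries at 246 CPM per kb, and *pbs-4* (220.3) and *pbs-1* (220.2), both of the beta ring, followed it. *rpn-2* (76.1) and *rpn-1* (78.4), the large scaffold subunits of the base, were the lowest apart from *rpn-6.2* (13.7). Neighbours in this order often did not differ beyond their spread: in unexposed L3 worms *pbs-4* had 240.1 ± 2.27 CPM per kb and *pas-3* 239 ± 1.32, and in unexposed L4 worms *pbs-1* had 255 ± 29.4 and *pas-3* 276 ± 7.96 (SD, n = 3 each). Within a group the coefficient of variation of a gene's CPM was usually a few percent, and the largest was 15.1% (*pbs-2* in unexposed L4 worms).

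**Figure D1:**
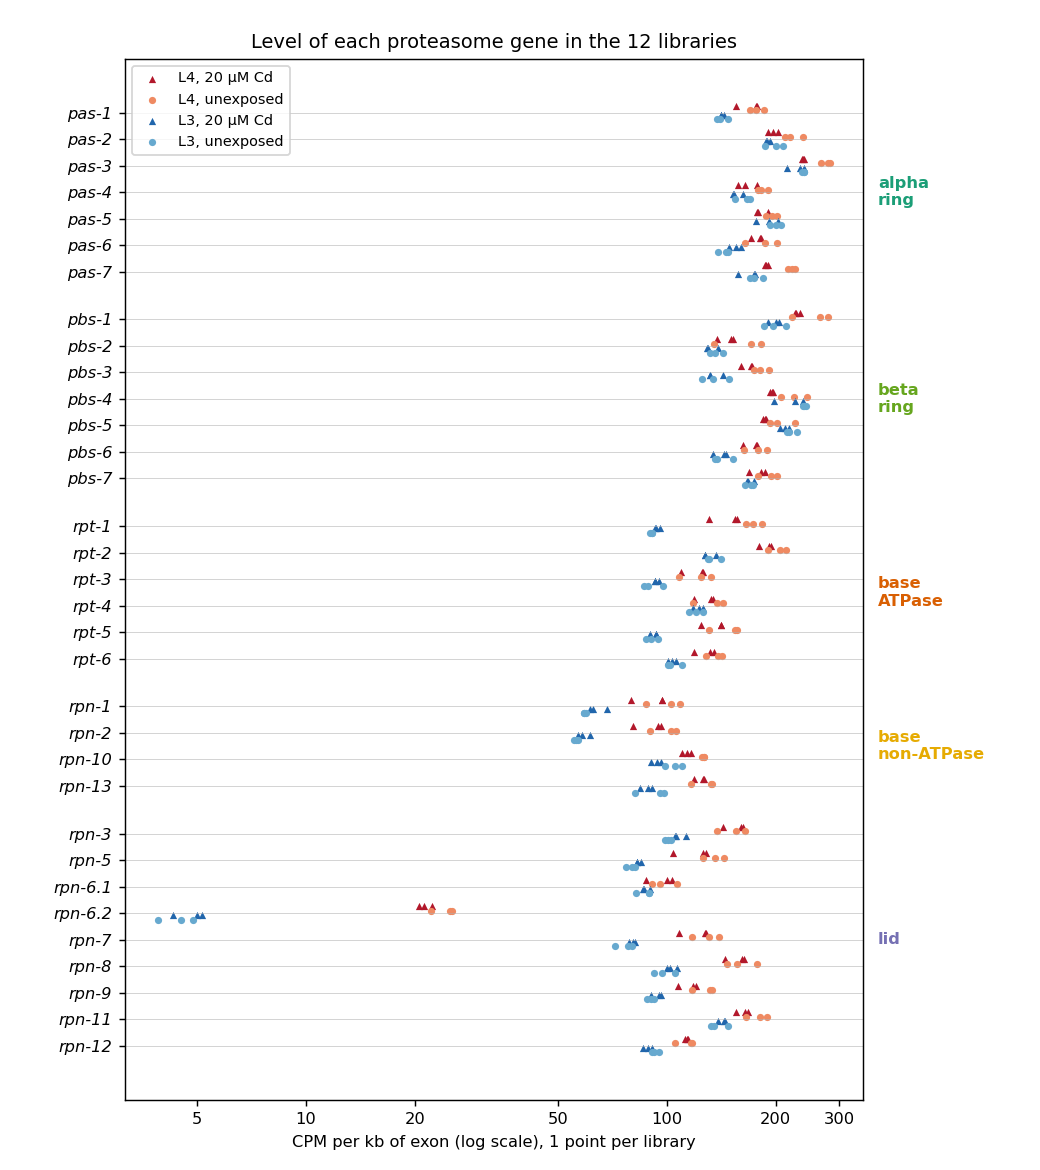
Level of each of the 33 proteasome genes in CPM per kb of exon (log axis), with 1 point for each of the 12 libraries, grouped by part of the complex. *rpn-6.2* stands apart at the low end with the L4 libraries above all L3 libraries. The core genes (*pas*, *pbs*) lie higher per length than most cap genes (*rpt*, *rpn*). By the mean of the 12 libraries the cap genes *rpt-2* and *rpn-11* lie within the range of the core genes.

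The 33 genes are spread over 5 chromosomes, with 10 on I, 7 on II, 8 on III, 3 on IV and 5 on V. None lies on X, which carries 14.3% of the genes kept. The tables place *rpn-6.1* at 6959110 to 6962027 and *rpn-6.2* at 8999828 to 9001973, both on the minus strand of chromosome III in the WBcel235 genome, so these paralogs are not neighbours. *rpt-1* lies at 11980502 to 11982450 on the minus strand of V, and *pbs-5* at 14719167 to 14720477 on the minus strand of I. The strand setting of the counting and the handling of reads that match several places are not given in the sources used here. By the exon positions given with the counts, 21 of the 33 share no exon base with another named gene. *rpn-7* shares 20.5% of its exon bases with *F49C12.10* on the opposite strand, *rpn-9* 9.35% with *T06D8.12*, *pbs-4* 9.11% with *mrrf-1*, *rpn-13* 8.18% with *let-767* on the same strand and *rpt-4* 6.93% with *rpoa-49*, and the other 7 share at most 3.02%. Counts of those genes, and of *rpn-6.1* and *rpn-6.2* if reads were shared between the paralogs, are uncertain to that extent.

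Cd exposure to L3 left every proteasome gene without a call. By the quasi-likelihood test of edgeR, Benjamini-Hochberg adjusted, 0 of the 33 genes were called at an adjusted p of at most 0.05, where 6.53% of the 15024 genes tested were called. That share rested on single libraries: it was 21.7% without unexposed L3 replicate 3 and 0.0326% to 2.11% without any 1 of the other 5 libraries, with 0 of the 33 called each time. The study's threshold, which also asks for a log2 fold change of 1 or more in either direction, gave 0 as well, against 3.63% of all genes. At an unadjusted p of at most 0.05 the count was again 0 (26% of all genes), and the DESeq2 Wald test called 0, where it called 13.9% of all genes. The median log2 fold change over the 33 genes was 0.0048, and over all genes tested it was 0.0052. Single genes lay between -0.15 (*rpn-10*) and 0.12 (*rpn-6.2*). The 95% intervals of all 33 were inside ±0.5, with a lowest bound of -0.34 (*rpn-10*, a fold of 0.789) and a highest of 0.50 (*rpn-6.2*, a fold of 1.41), so a change of 2-fold at L3 lay outside every interval. These intervals use only the 4 residual degrees of freedom of each fit and are wider than the moderated test. The exposed libraries did not overlap with the unexposed ones for 5 genes that were higher and 2 that were lower, while 15.6% and 17.4% of all genes did so.

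A small offset between core and cap was present in the L3 values. The 14 core genes had a median log2 fold change of -0.04 and the 19 cap genes of 0.05, with 6 and 14 of them above 0, against 50.9% of all genes tested. These are differences of a few percent, and no gene behind them was called. Across the 33 genes the L3 fold change followed exon length with a Spearman rho of 0.666. It was 0.642 within the cap, 0.20 within the core and 0.078 over all genes tested, and the part of length in the offset was not tested. Without 1 library the core median lay between -0.065 (without exposed L3 replicate 3) and -0.012 (without unexposed L3 replicate 1), -0.015 without exposed L3 replicate 1 or 2, and the cap median between 0.036 and 0.056. The position of zero depended on the scaling: with library totals alone 31 of the 33 genes were above 0 with a median of 0.069, and the median of all genes was 0.069 as well. Several marker lists moved with the L3 groups. The 10 germline markers summed to 692 to 706 CPM in exposed L3 worms and 594 to 646 in unexposed L3 worms, and 10 of 10 were above 0, with a median of 0.18. The 6 oocyte markers summed to 80.0 to 89.5 CPM in exposed L3 worms and 68.1 to 78.1 in unexposed L3 worms, and 6 of 6 were above 0. The 6 intestine markers summed to 2895 to 3039.8 CPM in exposed L3 worms and 2524 to 2651 in unexposed L3 worms, and 3 of 6 were above 0. By edgeR none of the germline, oocyte and intestine markers was called, and 5, 2 and 3 of them reached an unadjusted p of at most 0.05, where 26% of all genes did. The DESeq2 Wald test called 0, 1 (*oma-2*) and 2 (*act-5* and *ifb-2*), all higher and named after their values were seen, where it called 13.9% of all genes. Of all marker genes, edgeR called 2, both of the hypodermis list, where it called 6.53% of all genes. The cuticle collagen *rol-6* was lower, at -1.75 (adjusted p = 0.0130), and the transcription factor *elt-3* was higher, at 0.50 (adjusted p = 0.0361, the quasi-likelihood test of edgeR). The 5 hypodermis markers summed to 912 to 1094 CPM in exposed L3 worms and 904 to 1212 in unexposed L3 worms, no marker of these 4 lists was at 0, and their part in the proteasome values was not tested.

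Cd exposure to L4 also gave 0 of 33 called genes, in a comparison where 0.0556% of the 16201 genes tested were called by the quasi-likelihood test of edgeR, Benjamini-Hochberg adjusted. Past the study's threshold the count was 0 (0.0432% of all genes), and the DESeq2 Wald test called 0, where it called 8.11% of all genes. The values leaned to one side here. The fold change was below 0 for 29 of the 33 genes, whereas 52.5% of all genes were above 0, and the median was -0.10 over the 33 and 0.03 over all genes. All 14 core genes and 15 of the 19 cap genes were below 0, with medians of -0.12 and -0.09. Single genes lay between -0.22 (*rpt-1*) and 0.05 (*rpn-3*). An unadjusted p of at most 0.05 was reached by *pas-7*, *pas-3* and *rpt-1*, which is 3 of 33 genes, while 26.8% of all genes reached it. The lowest adjusted p of the 33 was 0.147 (*pas-7*, the quasi-likelihood test of edgeR, Benjamini-Hochberg adjusted). For 9 genes every exposed L4 library was below every unexposed one, and 17.8% of all genes did so. The size of the offset moved with single libraries: the median was -0.055 without exposed L4 replicate 1, -0.059 without unexposed L4 replicate 3 and -0.16 without unexposed L4 replicate 1, with 23, 25 and 33 genes below 0. All 33 intervals lay inside ±0.5, down to -0.48 for *rpt-1* (a fold of 0.717) and up to 0.31 for *rpn-3* (a fold of 1.24).

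Several cell type lists moved with the L4 groups. The 10 germline markers summed to 2866 to 3640.1 CPM in the exposed L4 libraries and 3707 to 4577 in the unexposed ones, and 10 of 10 were below 0 in the fold change. The 6 oocyte markers summed to 2708 to 3896 CPM in exposed L4 worms and 4011 to 5527 in unexposed L4 worms, and 6 of 6 were below 0. The 5 body wall muscle markers summed to 8268 to 9119 CPM in exposed L4 worms and 4740.2 to 6786 in unexposed L4 worms, and 5 of 5 were above 0. By the quasi-likelihood test of edgeR none of these germline, oocyte and muscle markers was called. By the same test 6, 6 and 5 of them reached an unadjusted p of at most 0.05, where 26.8% of all genes did. The DESeq2 Wald test called 1, 3 and 4, and 8.11% of all genes. No marker of these lists was at 0, and their part in the proteasome values was not tested.

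**Figure D2:**
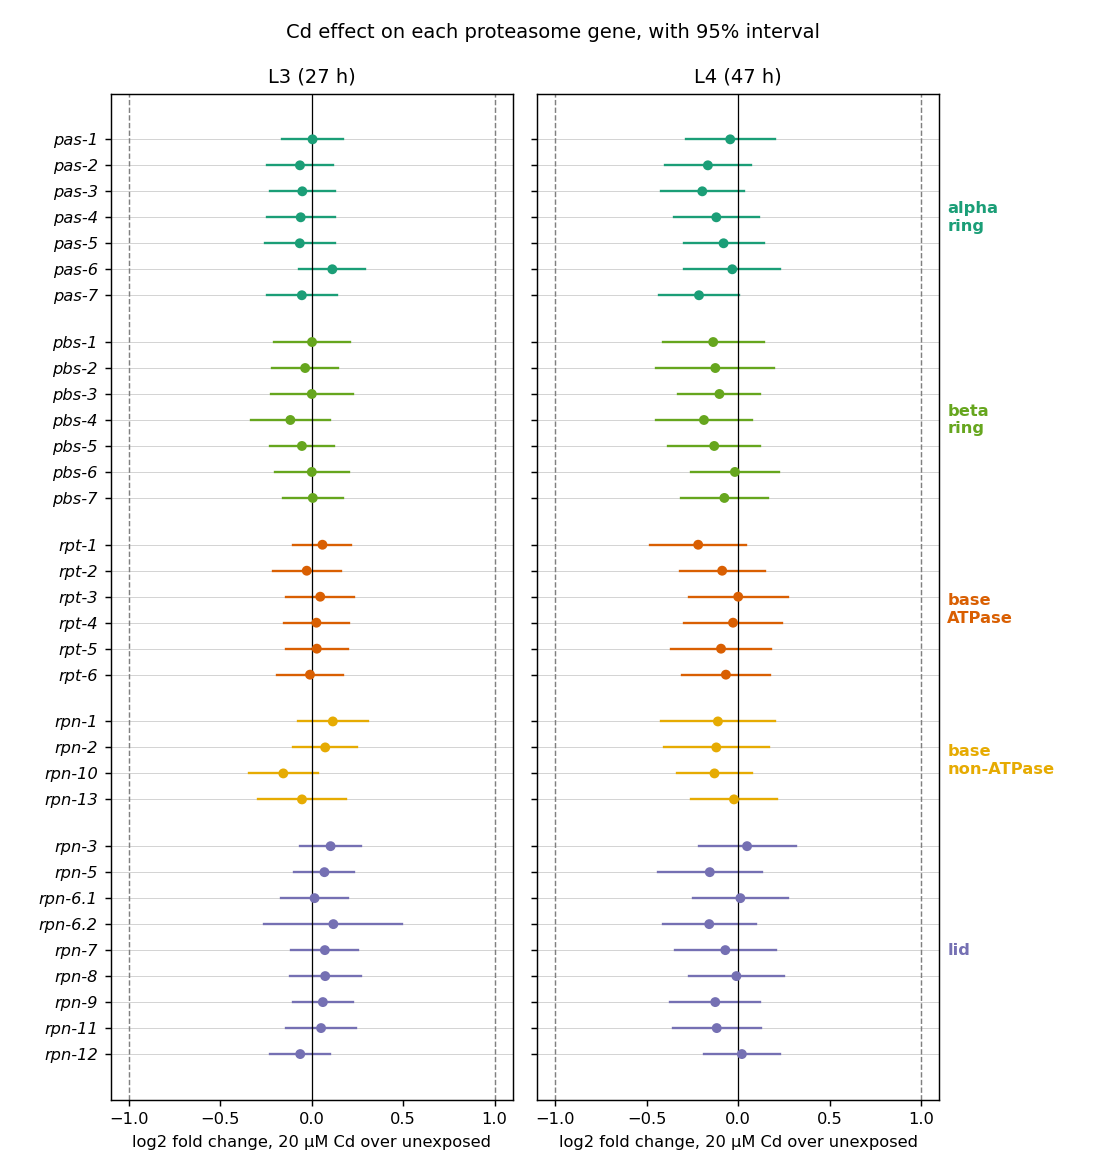
Log2 fold change of 20 µM Cd over unexposed worms for each of the 33 proteasome genes at L3 (left) and L4 (right), from fits of 3 against 3 libraries. Points are estimates, bars are 95% intervals, and the dashed lines mark a log2 fold change of -1 and 1. Every interval covers 0 and stays inside ±0.5, and at L4 29 of the 33 points lie left of 0.

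The Cd effect at L3 minus the Cd effect at L4 was tested with the 12 libraries modelled together. By the quasi-likelihood test of edgeR, Benjamini-Hochberg adjusted, 0 of the 33 genes were called, against 11.6% of the 17196 genes tested, and *rpt-1* alone reached an unadjusted p of at most 0.05, which 29.9% of all genes did. The difference was above 0 for 30 of the 33 genes and for 50.4% of all genes, with a median of 0.10 over the 33 and 0.0068 over all genes. The median of the 33 was 0.19 without unexposed L3 replicate 1, 0.17 without exposed L3 replicate 1 and 0.064 without unexposed L4 replicate 3. The count depended on the scaling and the tool. Size factors of DESeq2 moved the median of all genes to 0.11 and of the 33 genes to 0.21, and 1 gene (*rpt-1*) was then called, against 15.2% of all genes. The DESeq2 Wald test called 3 of 33 (*pas-3*, *pas-7* and *rpt-1*), a smaller share than the 20% of all genes it called. The median of the 33 genes minus that of all genes was 0.09 as reported and 0.10 under both of these settings.

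The stage difference was larger than the Cd effect for most subunits. In exposed worms 22 of the 33 genes were higher at L4 than at L3 and *pbs-5* was lower at an adjusted p of at most 0.05 (the quasi-likelihood test of edgeR, Benjamini-Hochberg adjusted), while 40% of the 16650 genes tested were called higher and 39.5% lower. *rpn-6.2* was the 1 gene that also passed a log2 fold change of 1, which 25.5% of all genes did in the higher direction. The median log2 fold change was 0.28 over the 33 genes, a fold of 1.21, and -0.01 over all genes.

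Unexposed worms, in separate libraries, gave a similar order of genes with larger values. Among them 29 of the 33 genes were higher at L4 than at L3 and 0 were lower, while 40.7% of the 16487 genes tested were called higher and 40.6% lower by the same test. *rpn-6.2* and *rpt-1* passed a log2 fold change of 1, which 28.5% of all genes passed in that direction. The median over the 33 genes was 0.43, a fold of 1.35, and over all genes -0.07. The L4 libraries did not overlap with the L3 libraries for 28 of the 33, all higher at L4, while 40.5% of all genes had no overlap in that direction. *pbs-4*, *pbs-5*, *pas-5* and *rpt-4* were not called.

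Across the 33 genes the exposed and unexposed stage differences had a Pearson r of 0.985 and a Spearman rho of 0.942. Without *rpn-6.2* the values were 0.957 and 0.937. The genes of each comparison share their libraries, so these are descriptions. The exposed value was the smaller one for 33 of 33 genes, and this is the same contrast of the 12 libraries as the difference of Cd effects, for which 0 genes were called. Scaling moved the stage values as a block: the all-gene median in unexposed worms was 0.07 with the size factors of DESeq2 and -0.20 with library totals alone. Relative to the all-gene median the 33 genes stood 0.29 higher in exposed worms and 0.50 higher in unexposed worms under all 3 scalings.

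**Figure D3:**
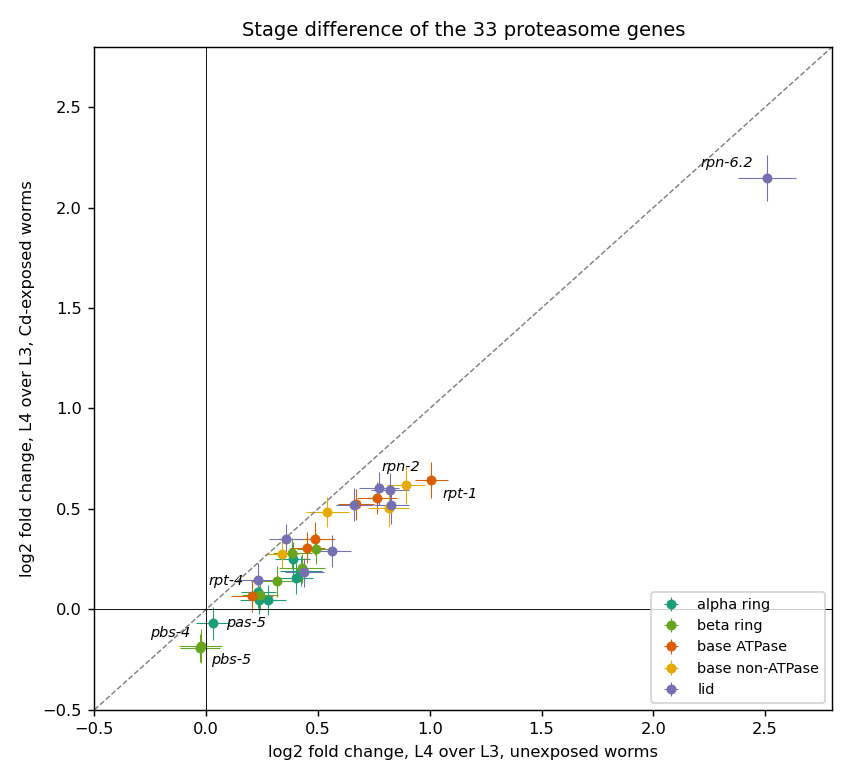
Log2 fold change of L4 over L3 for the 33 proteasome genes in exposed worms (vertical) against unexposed worms (horizontal), coloured by part of the complex, with bars of ± 1 SE and a dashed line of equal values. The points follow 1 order, all below the dashed line, with *rpn-6.2* far at the upper right and *pbs-4*, *pbs-5* and *pas-5* near or below 0.

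The cap and the core differed in the size of the stage difference. In exposed worms 17 of 19 cap genes were called higher, with a median log2 fold change of 0.51, and 5 of 14 core genes were higher and 1 lower, with a median of 0.11. In unexposed worms the counts were 18 of 19 cap genes, with a median of 0.66 (a fold of 1.58), and 11 of 14 core genes, with a median of 0.30 (a fold of 1.23). Of all genes tested, 40% were called higher in exposed worms and 40.7% in unexposed worms. The core count in exposed worms as reported, 5 of 14, did not exceed the all-gene share. The core counts moved with single libraries and with the scaling. In exposed worms 3 core genes were higher without exposed L3 replicate 1 and 2 without exposed L4 replicate 2 or 3. Without exposed L4 replicate 1, with the size factors of DESeq2 and with its Wald test, 7 of 14 were higher. In these settings 81.1%, 78.9% and 77.1% of all genes were called in either direction. In unexposed worms 6 were higher without unexposed L3 replicate 1 or with library totals alone, and 7 without unexposed L3 replicate 2 or 3 or unexposed L4 replicate 3. The cap counts stayed at 16 to 18 in exposed and 17 to 19 in unexposed worms without 1 library. The ratio of the summed CPM of the cap to that of the core, which no scaling between libraries can alter, was 1.46, 1.59 and 1.56 in the exposed L4 libraries, 1.45, 1.60 and 1.44 in the unexposed L4 libraries, 1.19, 1.24 and 1.17 in the exposed L3 libraries and 1.14, 1.15 and 1.15 in the unexposed L3 libraries. Every L4 library was above every L3 library. Between the Cd groups the ratios overlapped at L4, and at L3 the exposed libraries were slightly above the unexposed ones. The core sums were 2329, 2426 and 2470.5 CPM in exposed L4 worms and 2519, 2638 and 2812 CPM in unexposed L4 worms, listed from low to high. At L3 they were 2207, 2266 and 2327 CPM in exposed worms and 2257, 2308 and 2411 CPM in unexposed worms. The cap sums were 3406, 3859 and 3866 CPM in exposed L4 worms and 3648, 4051 and 4212 CPM in unexposed L4 worms. At L3 they were 2696, 2725 and 2735 CPM in exposed worms and 2599, 2647 and 2755 CPM in unexposed worms. The low cap sum of the exposed L4 group was that of replicate 1.

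**Figure D4:**
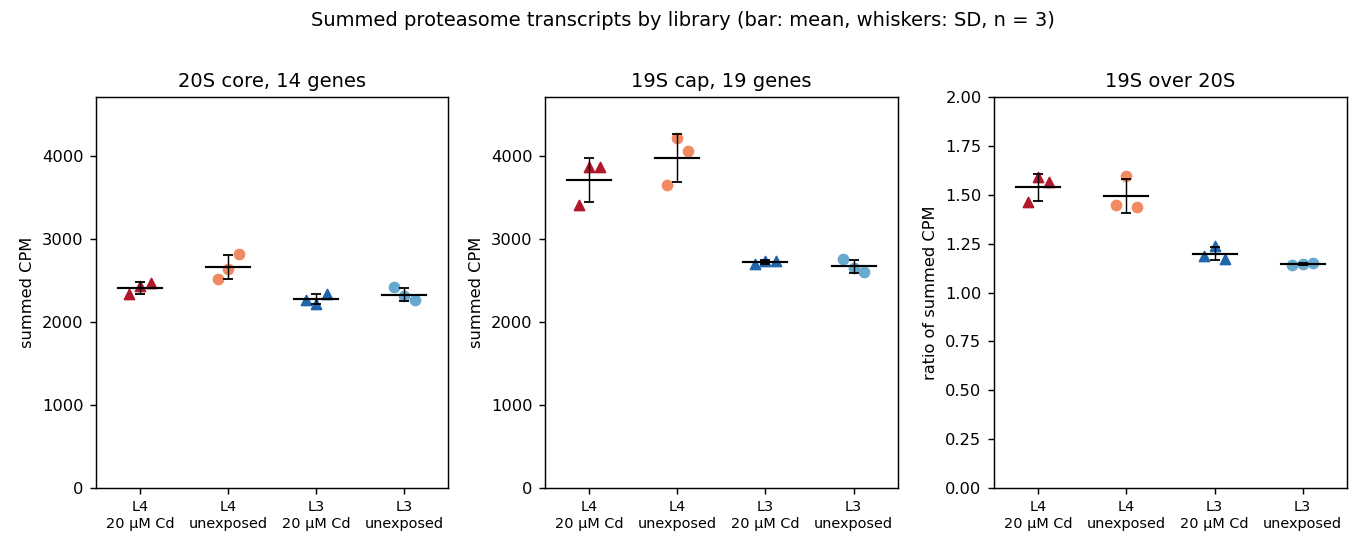
Summed CPM of the 14 core genes (left) and the 19 cap genes (middle) and the ratio of the cap sum to the core sum (right) in each of the 12 libraries, with the mean (bar) and SD (whiskers) of 3 replicates. Cap sums of all L4 libraries lie above all L3 libraries, and the ratio lies between 1.44 and 1.60 at L4 and between 1.14 and 1.24 at L3.

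Transcript length differed between the parts as well. The median exon length was 1493 bases for the cap and 921.5 bases for the core. Across the 33 genes the stage difference followed length with a Spearman rho of 0.628 in exposed worms and 0.646 in unexposed worms. Within the cap rho was 0.384 in exposed and 0.567 in unexposed worms, within the core -0.21 in exposed and -0.12 in unexposed worms, and over all genes tested 0.039 in exposed and 0.049 in unexposed worms. The part of length in the difference between cap and core was not tested.

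Cell type markers also separated the stages. The 8 sperm markers summed to 482 to 576 CPM in exposed L4 worms and 488 to 525 in unexposed L4 worms, and to 3.12 to 4.08 in exposed L3 worms and 3.33 to 4.25 in unexposed L3 worms. The germline and oocyte sums given above were all higher in the L4 libraries than in the L3 libraries. Intestine markers ran the other way, at 1752 to 1877 CPM in exposed L4 worms and 1484 to 1842 in unexposed L4 worms, below the L3 sums given above. In both stage comparisons all 24 germline, sperm and oocyte markers were called higher at L4 and all 6 intestine markers lower. Of all genes, 40% were called higher and 39.5% lower in exposed worms, and 40.7% higher and 40.6% lower in unexposed worms. The 6 neuron markers summed to 319 to 331 CPM in exposed L4 worms and 295 to 323 in unexposed L4 worms, against 386 to 446 in exposed L3 worms and 379 to 432 in unexposed L3 worms, with 5 called lower at L4 in exposed worms, and 4 lower and 1 (*snb-1*) higher in unexposed worms. The 5 body wall muscle markers did not go one way, with 4 called higher at L4 in exposed worms (*myo-3*, *unc-15*, *unc-27* and *unc-54*) and 2 called lower in unexposed worms (*myo-3* and *unc-22*), and summed at L3 to 5719 to 7165 CPM in exposed worms and 6028 to 6940.1 in unexposed worms. Of the 5 hypodermis markers 4 were called lower at L4 in both. The part of all these lists in the proteasome values was not tested.

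The alpha ring forms the gate through which substrates enter the core. *pas-3*, its most abundant member, had 248, 250.1 and 251 CPM in the exposed L4 libraries, 296, 280.3 and 293 CPM in the unexposed L4 libraries, 244, 226 and 252 CPM in the exposed L3 libraries and 249, 251 and 251 CPM in the unexposed L3 libraries. Only the unexposed L4 libraries stood apart, and they were above all 9 others. The L4 over L3 fold change was 0.05 (SE 0.08) in exposed worms, which was not called, and 0.28 (SE 0.08) in unexposed worms, which was. *pas-7* had 186, 186 and 189 CPM in the exposed L4 libraries, 225, 215 and 220.2 CPM in the unexposed L4 libraries, 173, 156 and 174 CPM in the exposed L3 libraries and 183, 173 and 168 CPM in the unexposed L3 libraries. It too was highest in the unexposed L4 libraries without overlap, and the Cd difference at L4 was -0.21 with an interval of -0.43 to 0.0057.

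*pas-5* was the only alpha gene with a negative stage difference in exposed worms and had the smallest one in unexposed worms, at 152, 153 and 163 CPM in the exposed L4 libraries, 161, 167 and 172 CPM in the unexposed L4 libraries, 173, 151 and 164 CPM in the exposed L3 libraries and 177, 165 and 171 CPM in the unexposed L3 libraries. The groups overlapped at both stages and in both treatments. Its L4 over L3 fold change was -0.07 in exposed worms and 0.03 in unexposed worms, and its sign turned with the scaling. *pas-6* had 169, 180.1 and 179 CPM in the exposed L4 libraries, 163, 185 and 199 CPM in the unexposed L4 libraries, 147, 159 and 154 CPM in the exposed L3 libraries and 146, 144 and 137 CPM in the unexposed L3 libraries, and the exposed L3 libraries were just above the unexposed ones, a Cd difference of 0.11 (SE 0.06) that was not called. The L4 libraries were all above the L3 libraries. Of the other alpha genes, *pas-1*, *pas-2* and *pas-4*, only *pas-1* was called higher at L4 in exposed worms, at 0.25, and all 3 were in unexposed worms, at 0.39, 0.24 and 0.23.

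The beta ring carries the active sites. *pbs-1*, *pbs-2* and *pbs-5* encode the subunits with caspase-like, trypsin-like and chymotrypsin-like activity, as named from their counterparts in yeast and mammals. These 3 did not follow each other between the stages. *pbs-1* had 188, 189.8 and 194 CPM in the exposed L4 libraries, 185, 220.2 and 232 CPM in the unexposed L4 libraries, 158, 167 and 169 CPM in the exposed L3 libraries and 177, 164 and 154 CPM in the unexposed L3 libraries. All L4 libraries were above all L3 libraries, and the fold change of 0.20 (SE 0.07) in exposed worms and 0.43 (SE 0.10) in unexposed worms was called in both. The exposed call was lost without exposed L3 replicate 1, exposed L4 replicate 2 or exposed L4 replicate 3, where the adjusted p was 0.0688, 0.0625 and 0.083 by the quasi-likelihood test of edgeR, Benjamini-Hochberg adjusted.

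*pbs-2* had 138, 152 and 153 CPM in the exposed L4 libraries, 136, 172 and 183 CPM in the unexposed L4 libraries, 131, 129.8 and 139.8 CPM in the exposed L3 libraries and 144, 132 and 136 CPM in the unexposed L3 libraries. Unexposed L4 replicate 1 was as low as the L3 libraries, so the unexposed stages overlapped. The fold change of 0.14 (SE 0.08) in exposed worms was not called. It was called higher with the size factors of DESeq2, with the DESeq2 Wald test and without exposed L4 replicate 1. The fold change of 0.31 (SE 0.11) in unexposed worms was called. Leaving out any library but unexposed L4 replicate 1 lost that call (adjusted p up to 0.122, the quasi-likelihood test of edgeR, Benjamini-Hochberg adjusted).

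*pbs-5* had 195, 197 and 199 CPM in the exposed L4 libraries, 204, 213 and 239 CPM in the unexposed L4 libraries, 218, 225 and 230.5 CPM in the exposed L3 libraries and 242, 231 and 228 CPM in the unexposed L3 libraries. The exposed L4 libraries were the lowest 3 of the series and within 4 CPM of each other, while the unexposed L4 libraries overlapped with the L3 libraries. *pbs-5* was the 1 proteasome gene that was called lower at L4, with a log2 fold change of -0.19 (SE 0.07) in exposed worms (adjusted p = 0.0298, the quasi-likelihood test of edgeR, Benjamini-Hochberg adjusted), and in unexposed worms the value was -0.03 (SE 0.09). The exposed call rested on the scaling and on single libraries. It was lost with the size factors of DESeq2 (-0.09), with the DESeq2 Wald test and without a filter on low counts (-0.15). It was also lost in 4 of the 6 fits that left out 1 library, among them those without exposed L4 replicate 2 or 3.

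*pbs-4*, a beta subunit without an active site, resembled *pbs-5*, at 157, 155 and 158 CPM in the exposed L4 libraries, 180.0, 165 and 196 CPM in the unexposed L4 libraries, 191, 158 and 181 CPM in the exposed L3 libraries and 192, 191 and 194 CPM in the unexposed L3 libraries. The exposed L4 libraries lay just below all exposed L3 libraries, and the fold change of -0.18 (SE 0.09) was not called. It was called lower with library totals alone (-0.23) and without exposed L3 replicate 2 (-0.25, adjusted p = 0.0235 by the quasi-likelihood test of edgeR). In unexposed worms it was -0.02 (SE 0.10), and the sign turned with the scaling. In exposed worms *pbs-3* and *pbs-6* were called higher at L4, at 0.30 and 0.28. *pbs-3*, *pbs-6* and *pbs-7*, the other structural members of the ring, were called higher at L4 in unexposed worms, at 0.49, 0.38 and 0.24.

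The 6 ATPases of the base form the ring that unfolds substrates. *rpt-1* had the largest stage difference of this ring, at 209, 247 and 250.3 CPM in the exposed L4 libraries, 264, 293 and 276 CPM in the unexposed L4 libraries, 148, 153 and 149 CPM in the exposed L3 libraries and 145, 145 and 144 CPM in the unexposed L3 libraries. Every L4 library was above every L3 library, the exposed L4 libraries were below the unexposed L4 libraries, and the exposed L3 libraries were above the unexposed L3 libraries. The L4 over L3 fold change was 0.64 (SE 0.09) in exposed worms (adjusted p = 7.47e-05) and 1.01 (SE 0.07) in unexposed worms (adjusted p = 6.03e-06), both by the quasi-likelihood test of edgeR, Benjamini-Hochberg adjusted. The unexposed value lies at the study's threshold, and *rpt-1* fell short of it with library totals alone, with all 12 libraries in the fit, and without unexposed L3 replicate 1 or unexposed L4 replicate 2, which left 1 gene past it. The Cd effect was 0.06 (SE 0.06) at L3 and -0.22 (SE 0.09) at L4, and the difference between them was 0.29 with an interval of 0.03 to 0.55 (adjusted p = 0.109 by the quasi-likelihood test of edgeR). Of the other ATPases, *rpt-2*, *rpt-5*, *rpt-3* and *rpt-6* were called higher at L4 in both treatments, with values of 0.52, 0.55, 0.35 and 0.31 in exposed worms and 0.67, 0.76, 0.49 and 0.45 in unexposed worms. *rpt-4* was not called in either, at 0.07 in exposed worms and 0.21 in unexposed worms.

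The base also holds the scaffold subunits *rpn-1* and *rpn-2* and the ubiquitin receptors *rpn-10* and *rpn-13*. *rpn-2* had 252, 302 and 296 CPM in the exposed L4 libraries, 281, 332 and 322 CPM in the unexposed L4 libraries, 178, 191 and 183 CPM in the exposed L3 libraries and 178, 173 and 176 CPM in the unexposed L3 libraries, and the stages did not overlap. Its L4 over L3 fold change was 0.62 (SE 0.09) in exposed worms and 0.90 (SE 0.09) in unexposed worms. *rpn-1* had 252, 307 and 307 CPM in the exposed L4 libraries, 278, 345 and 326 CPM in the unexposed L4 libraries, 194, 217 and 198 CPM in the exposed L3 libraries and 189, 188 and 187 CPM in the unexposed L3 libraries. It was called in both as well, at 0.51 and 0.82, and its Cd effect of 0.12 (SE 0.07) at L3 against -0.11 (SE 0.11) at L4 was not called at either stage.

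*rpn-10*, which is also known from *C. elegans* for a role in germline sex determination, had 145, 149.7 and 153 CPM in the exposed L4 libraries, 166, 166 and 164 CPM in the unexposed L4 libraries, 118.8, 123 and 126 CPM in the exposed L3 libraries and 144, 138 and 129 CPM in the unexposed L3 libraries. At L3 and at L4 the exposed libraries were all below the unexposed ones, with Cd effects of -0.15 (SE 0.07) and -0.13 (SE 0.07). Neither was called, and the lowest unadjusted p of any proteasome gene at L3 was that of *rpn-10*, at an adjusted p of 0.200 (the quasi-likelihood test of edgeR, Benjamini-Hochberg adjusted). *rpn-13* had 165, 176 and 175 CPM in the exposed L4 libraries, 162, 184 and 186 CPM in the unexposed L4 libraries, 117, 127 and 124 CPM in the exposed L3 libraries and 137, 133 and 113 CPM in the unexposed L3 libraries. The Cd groups overlapped at both stages, and its values between the stages were 0.48 (SE 0.08) in exposed and 0.54 (SE 0.10) in unexposed worms, called in both.

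In the lid, *rpn-11* encodes the metalloprotease that cuts the ubiquitin chain from the substrate. It had 171, 185 and 181 CPM in the exposed L4 libraries, 182, 199.5 and 209 CPM in the unexposed L4 libraries, 152, 160.1 and 159 CPM in the exposed L3 libraries and 162, 146 and 149 CPM in the unexposed L3 libraries. All L4 libraries were above all L3 libraries. The fold change of 0.18 (SE 0.07) in exposed worms was called at an adjusted p of 0.0413 (the quasi-likelihood test of edgeR, Benjamini-Hochberg adjusted) that did not hold in 5 of the 6 fits without 1 library, in which the adjusted p reached 0.132, and that of 0.44 (SE 0.09) in unexposed worms was called as well.

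*rpn-3*, a scaffold of the lid, had 265, 302 and 298 CPM in the exposed L4 libraries, 255, 305 and 288 CPM in the unexposed L4 libraries, 209, 195 and 196 CPM in the exposed L3 libraries and 191, 184 and 186 CPM in the unexposed L3 libraries. The stages did not overlap, and the Cd groups overlapped at L4, where *rpn-3* had the highest Cd effect of the 33 genes at 0.05 (SE 0.10). *rpn-12* had 99.1, 101 and 101 CPM in the exposed L4 libraries, 93.4, 103 and 104 CPM in the unexposed L4 libraries, 78.2, 76.1 and 80.3 CPM in the exposed L3 libraries and 83.9, 81.6 and 80.5 CPM in the unexposed L3 libraries, again with the stages apart, at 0.35 (SE 0.07) in exposed and 0.36 (SE 0.08) in unexposed worms. *rpn-12* was also the gene for which the Cd effect at L3 was most below that at L4, by -0.07 (SE 0.10). *rpn-5*, *rpn-7*, *rpn-8* and *rpn-9* were called higher at L4 in both treatments, at 0.52, 0.59, 0.60 and 0.29 in exposed worms and 0.83, 0.82, 0.77 and 0.56 in unexposed worms.

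The lid subunit next to the core exists as a pair of paralogs. *rpn-6.1*, whose raised level is known to protect *C. elegans* from proteotoxic stress, had 146, 173 and 167 CPM in the exposed L4 libraries, 152, 178 and 159.6 CPM in the unexposed L4 libraries, 145, 150.1 and 143 CPM in the exposed L3 libraries and 149, 149 and 137 CPM in the unexposed L3 libraries. The exposed L4 libraries overlapped with the exposed L3 libraries, and the values were 0.14 (SE 0.08) in exposed worms, not called, and 0.23 (SE 0.08) in unexposed worms. The unexposed call (adjusted p = 0.0267, the quasi-likelihood test of edgeR, Benjamini-Hochberg adjusted) was lost in 5 of the 6 fits without 1 library, where it reached 0.0869, and the exposed value was called without exposed L4 replicate 1, at 0.22 with an adjusted p of 0.0048 by the same test.

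*rpn-6.2* had 32.3, 31.2 and 34.0 CPM in the exposed L4 libraries, 38.5, 38.1 and 33.7 CPM in the unexposed L4 libraries, 7.83, 6.51 and 7.57 CPM in the exposed L3 libraries and 5.93, 7.41 and 6.87 CPM in the unexposed L3 libraries. No other proteasome gene separated the stages as far. The L4 over L3 log2 fold change was 2.15 (SE 0.12), a fold of 4.43, in exposed worms (adjusted p = 8.00e-08), and 2.51 (SE 0.13), a fold of 5.69, in unexposed worms (adjusted p = 9.25e-07), both by the quasi-likelihood test of edgeR, Benjamini-Hochberg adjusted. Per length, *rpn-6.2* made up 16.6% to 19.6% of the *rpn-6* transcripts of both paralogs in exposed L4 worms, 18.8% to 21.9% in unexposed L4 worms, 4.55% to 5.62% in exposed L3 worms and 4.19% to 5.24% in unexposed L3 worms. Cd left it without a call at both stages, with effects of 0.12 (SE 0.14) at L3 and -0.16 (SE 0.09) at L4. Its rise at L4 went with the sperm, oocyte and germline markers given above, and their part in it was not tested.

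**Figure D5:**
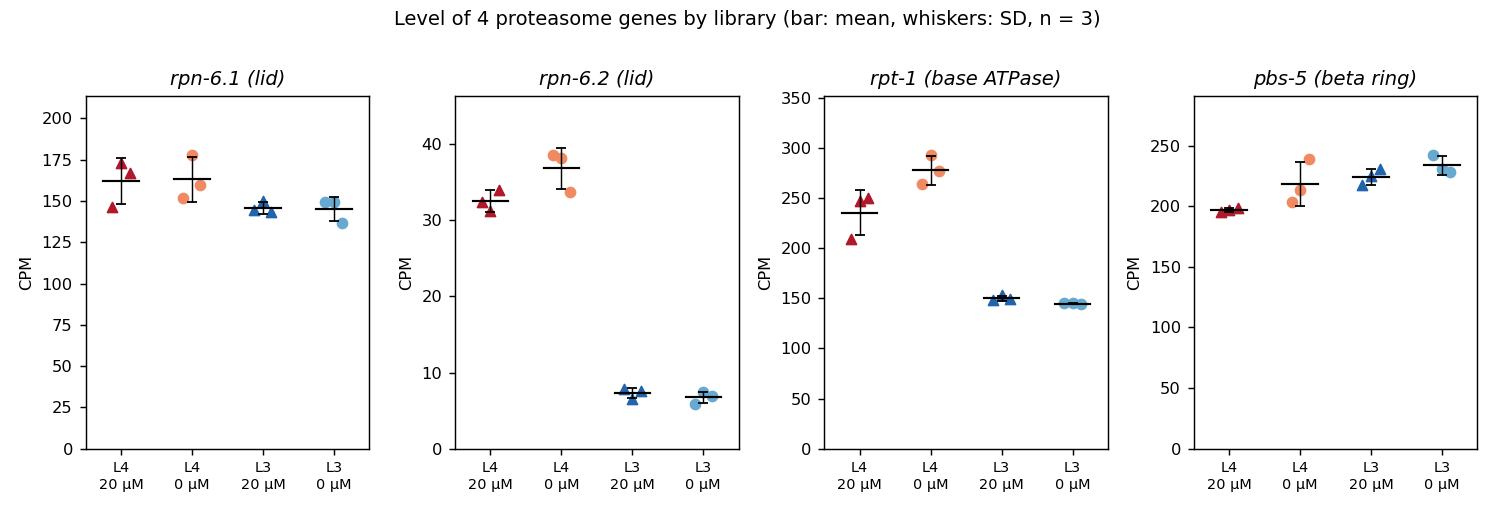
CPM of the lid paralogs *rpn-6.1* and *rpn-6.2*, the ATPase *rpt-1* and the catalytic subunit *pbs-5* in each of the 12 libraries, with the mean (bar) and SD (whiskers) of 3 replicates and axes that start at 0. *rpn-6.2* is at 31.2 to 38.5 CPM at L4 and at 5.93 to 7.83 at L3, and *pbs-5* is lowest in the exposed L4 libraries.

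Around the proteasome, 24 genes of the same pathway were listed (regulators of subunit transcription, the ubiquitin-activating enzyme, ubiquitin genes, the segregase CDC-48 and its cofactors, shuttle factors, deubiquitinases, ubiquitin ligases and assembly or adaptor factors). *psme-3* was not analysed here, and the other 23 were tested. At L3, Cd left 22 of them without a call and 1, *aip-1*, was lower, where 6.53% of all genes were called. At L4 it left 23 of 23 without a call, where 0.0556% of all genes were called. By edgeR, 8 of the 23 reached an unadjusted p of at most 0.05, as did 26.8% of all genes. The DESeq2 Wald test called 3 (*aip-1* higher, *chn-1* and *psmd-9* lower, named after their values were seen) and 8.11% of all genes. Most of the partner genes were also higher at L4 than at L3. In exposed worms 16 of 23 were higher at L4 and 0 lower, with a median of 0.48, where 40% of all genes were called higher. In unexposed worms 19 were higher and 0 lower, with a median of 0.71, where 40.7% of all genes were called higher. The small lid subunit *dss-1*, whose name lies outside the rule, was among the higher partner genes, at 0.33 in exposed worms and 0.65 in unexposed worms.

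*aip-1*, known in *C. elegans* as an arsenite-inducible adaptor of the proteasome, had 111, 119.9 and 122 CPM in the exposed L4 libraries, 82.6, 65.8 and 70.7 CPM in the unexposed L4 libraries, 18.5, 18.2 and 20.1 CPM in the exposed L3 libraries and 29.8, 28.4 and 23.8 CPM in the unexposed L3 libraries. Cd went with lower levels at L3 and higher levels at L4, and the groups overlapped at neither stage. The fold change was -0.52 (SE 0.10) at L3 (adjusted p = 0.0319) and 0.71 (SE 0.11) at L4 (adjusted p = 0.0524), both by the quasi-likelihood test of edgeR, Benjamini-Hochberg adjusted, so only the L3 value was called. The L3 call was lost in every fit without 1 library but the one without unexposed L3 replicate 3, up to an adjusted p of 0.147, and the L4 value was called by the DESeq2 Wald test, without a filter on low counts and with all 12 libraries in the fit, at adjusted p down to 0.00015.

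Of the activators of subunit transcription, *skn-1* had 203, 242 and 231 CPM in the exposed L4 libraries, 208, 244 and 228 CPM in the unexposed L4 libraries, 122, 135 and 132 CPM in the exposed L3 libraries and 152, 154 and 129.8 CPM in the unexposed L3 libraries. All L4 libraries were above all L3 libraries, at 0.79 (SE 0.09) in exposed worms and 0.71 (SE 0.09) in unexposed worms, and the Cd groups overlapped at both stages. *ddi-1* had 69.3, 80.5 and 79.9 CPM in the exposed L4 libraries, 92.8, 105 and 89.4 CPM in the unexposed L4 libraries, 44.3, 43.0 and 41.01 CPM in the exposed L3 libraries and 37.9, 42.1 and 39.6 CPM in the unexposed L3 libraries. The stages were far apart, at 0.83 (SE 0.09) in exposed worms and 1.33 (SE 0.09) in unexposed worms, and at L4 the exposed libraries were below the unexposed ones, at -0.30 (SE 0.09), which was not called. *png-1* had 43.1, 40.0 and 41.8 CPM in the exposed L4 libraries, 50.2, 47.0 and 51.3 CPM in the unexposed L4 libraries, 38.2, 41.9 and 42.5 CPM in the exposed L3 libraries and 47.7, 51.2 and 46.0 CPM in the unexposed L3 libraries. The exposed libraries were below the unexposed ones at both stages, by -0.23 at each (SE 0.08 at L3 and 0.09 at L4), and neither was called (adjusted p = 0.116 and 0.149, the quasi-likelihood test of edgeR, Benjamini-Hochberg adjusted). Its stage difference was 0.02 in exposed worms and 0.10 in unexposed worms, also without a call.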

How the data were processed

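Whole worms of 4 groups, with 3 biological replicates each, were profiled by poly-A RNA-seq, and group and replicate were read from the sample titles. The authors trimmed reads with Trimmomatic 0.36, mapped them to WBcel235 with STAR 2.5.2b and deposited raw counts per gene from featureCounts of Subread 1.5.2, in 1 table per library. Total counts of 23899991 to 44766672 per library set the precision. An entry without a gene name was left out. It held 2.01% of unexposed L3 replicate 1, the library with the lowest total count, and 0.0148% to 0.0983% of each other library.

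Genes were kept by filterByExpr and scaled by TMM. Groups were compared with the quasi-likelihood test of edgeR 4.0.16 (R 4.3.3, limma 3.58.1), with Benjamini-Hochberg adjustment over all genes tested and a call at an adjusted p of at most 0.05. Only the libraries compared entered a fit, except that the difference of Cd effects used all 12. The code was tested on simulated data with known changes. CPM per kb divides by the exon length that the count tables give. Intervals at 95% and SE come from the same fits.

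Alternatives were the size factors of DESeq2 1.42.0, library totals alone, no filter, the DESeq2 Wald test (the tool of the study), all 12 libraries in each fit, the replicate number as a block, and leaving out each library in turn.

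Values in every library are given for genes past the study's threshold, the 3 largest and 3 smallest fold changes of each comparison, *pbs-1*, *pbs-2*, *pbs-5*, *rpn-10*, *rpn-13*, *rpn-11*, *rpn-6.1* and *rpn-6.2*. From the list of 24 partner genes and the 7 lists of cell type markers, genes called in a Cd comparison (up to 5 a list) and *skn-1*, *ddi-1* and *png-1* are named, with *mtl-1* as a check of exposure. Ribosome, CCT, COP9 and eIF3 genes served for comparison. The members and the lists were chosen with earlier results of these data known.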

Additional observations from a re-analysis of the deposited data

Results flagged for a closer look

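Of the 23 partner genes tested, 3 passed the test of the Cd effect at L3 minus the Cd effect at L4 itself. The quasi-likelihood test of edgeR, with Benjamini-Hochberg adjustment, called 11.6% of the 17196 genes, and 3 of 23 is near that share. *aip-1*, the arsenite-inducible adaptor, had a difference of -1.22 (adjusted p = 0.00369), from a Cd effect of -0.52 at L3 and 0.71 at L4. It was called in 17 of 17 alternatives, at values of -1.32 to -1.09 and adjusted p of at most 0.0182 by edgeR or DESeq2, and exposed libraries were lower in 3 of 3 at L3 and higher in 3 of 3 at L4.

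*chn-1*, the worm counterpart of the ubiquitin ligase CHIP, had 54.2, 60.5 and 59.5 CPM in the exposed L4 libraries, 81.1, 76.8 and 71.5 CPM in the unexposed L4 libraries, 50.9, 37.3 and 36.3 CPM in the exposed L3 libraries and 32.9, 35.8 and 38.4 CPM in the unexposed L3 libraries. The groups overlapped at L3 and not at L4. Among the exposed L3 libraries only replicate 1 lay above all unexposed L3 libraries. The L3 effect ran from 0.06 to 0.31 over 12 alternatives and was called in 0 of them. For *chn-1* the difference of Cd effects was 0.61 (adjusted p = 0.0382 by edgeR), from 0.22 at L3 and -0.38 at L4. It was called in 9 of 17 alternatives, at values of 0.50 to 0.72 and adjusted p up to 0.0883 by edgeR.

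*ddi-1*, the protease of the SKN-1 pathway, had a difference of 0.42 (adjusted p = 0.0468 by edgeR), from 0.11 at L3 and -0.30 at L4. It was called in 5 of 17 alternatives, at values of 0.35 to 0.53 and adjusted p up to 0.103 by edgeR. Without unexposed L4 replicate 2 that value was 0.35, and of the fits without 1 library only that without unexposed L4 replicate 1 kept the call.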

How the results depend on the processing

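At Cd L3, no alternative called a proteasome gene. Library totals alone moved the median to 0.06888 and turned the sign of *pas-5* (0.0007029), *pbs-2* (0.02792), *pbs-5* (0.01009) and *rpn-13* (0.01142), and 12 libraries in the fit turned *pbs-1* (-0.004011). At Cd L4, the size factors of DESeq2 turned *rpn-6.1* (-0.02051) and *rpn-12* (-0.01316), the DESeq2 Wald test did too (-0.02045 and -0.01304), library totals turned *rpn-13* (0.03576) and 12 libraries in the fit *rpn-6.1* (-0.008397). None of these values was called, and these signs are not resolved at this depth and number of replicates.

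In unexposed worms between the stages, the median was 0.5688 with the size factors of DESeq2 and with its Wald test, 0.2984 with library totals and 0.3631 with 12 libraries, and the last 2 left 1 gene past the study's threshold. *pbs-4* and *pbs-5* turned with the size factors (0.1123 and 0.1094), the Wald test (0.1122 and 0.1094) and no filter (0.0149 and 0.01131), and *pas-5* with library totals (-0.09664) and 12 libraries (-0.03456). In exposed worms the median was 0.3862 with the size factors and 0.3863 with the Wald test, where *pas-5* turned (0.03656 and 0.03654).

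For the difference of Cd effects, the size factors of DESeq2 called 1 gene (15.2% of all genes) and its Wald test 3 (20% of all genes), with a median of 0.2093 in both. *rpn-10*, *rpn-13* and *rpn-12* turned with the size factors (0.09707, 0.09372 and 0.04117) and the Wald test (0.09717, 0.09369 and 0.04095), and *rpn-10* and *rpn-13* without a filter (0.01979 and 0.01478). The cause was not tested beyond the shift of the all-gene median that each scaling makes.

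Leaving out each library in turn gave 0 called genes in both Cd comparisons and in the difference of Cd effects, and 18 to 25 higher genes in exposed and 23 to 30 in unexposed worms between the stages. The unexposed stage median ran from 0.4028 to 0.5075, with 1 to 2 genes past the study's threshold, and the median difference of Cd effects from 0.0643 to 0.1917. Single genes crossed 0 at Cd L3 (*pbs-1* from -0.04248 to 0.05581, *rpn-6.1* from -0.02138 to 0.0465), at Cd L4 (*rpn-13* from -0.1075 to 0.01494, *rpn-3* from -0.04346 to 0.105, *rpn-6.1* from -0.06102 to 0.0805, *rpn-12* from -0.05222 to 0.05064), between the unexposed stages (*pbs-4* from -0.07816 to 0.05421, *pbs-5* from -0.08805 to 0.03211) and in the difference of Cd effects (*rpn-10* from -0.05354 to 0.08268, *rpn-13* from -0.09606 to 0.09182, *rpn-6.1* from -0.05142 to 0.09442, *rpn-12* from -0.09743 to 0.004469).

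Replicate numbers are shared between groups. Same-numbered libraries had correlations of their deviations of -0.157, 0.076 and -0.160 in the Cd L3 comparison and 0.376, 0.320 and -0.095 in the Cd L4 comparison, so the numbers were not taken as pairs. With the replicate block 2 genes were called lower at Cd L4, *pas-7* (-0.21) and *rpt-1* (-0.22), where 21% of all genes were then called. It gave 22 higher genes and 1 lower gene in exposed worms and 27 higher genes in unexposed worms between the stages, and no call at Cd L3 or in the difference of Cd effects.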

Other observations

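Of 4 other large complexes, 3 had a median below 0 and 1 had a median above 0 in the L4 over L3 fold change. Of the 78 ribosomal protein genes 62 were lower at L4 than at L3 in exposed worms (median -0.41) and 56 in unexposed worms (median -0.34), against a background of 39.5% and 40.6% of all genes called lower by edgeR. The 3 that were called higher in both were *rpl-11.1*, *rpl-42* and *rpl-25.2*, named after their values were seen, at 1.28, 4.1 and 0.33 in exposed worms and 1.53, 4.37 and 0.37 in unexposed worms. The CCT chaperonin, which folds actin and tubulin, had 5 of 8 genes lower in exposed worms (median -0.24) and 2 of 8 in unexposed worms (median -0.19). The translation initiation factor eIF3 had 8 of 11 genes lower in exposed worms (median -0.42) and 5 of 11 in unexposed worms (median -0.19). The COP9 signalosome, a relative of the proteasome lid that removes NEDD8 from cullins, had 4 of 6 genes higher in exposed worms (median 0.36) and 6 of 6 in unexposed worms (median 0.77), where 40% and 40.7% of all genes were called higher. The median Cd effects of the ribosome, CCT, COP9 and eIF3 genes were -0.016, -0.027, 0.071 and -0.049 at L3, and 0.014, -0.062, -0.25 and -0.11 at L4.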
